A study of Mus musculus with 4 samples.

Results

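The 10 genes described here encode the lymphotoxin ligands and their receptor, together with the kinase, adaptors and transcription factor subunits of the non-canonical NF-kB pathway. They are Lta, Ltb, Tnfsf14, Ltbr, Map3k14, Traf2, Traf3, Birc3, Relb and Nfkb2. They were taken by name from the 32289 gene rows of the deposited count matrices, and all 10 were found. No measured value entered the rule that names them, although earlier results of these data were known when they were chosen.

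Lymphotoxin alpha and lymphotoxin beta, the products of Lta and Ltb, assemble into a membrane-bound complex that binds the lymphotoxin beta receptor, the product of Ltbr, whereas lymphotoxin alpha alone is secreted and binds the receptors of tumour necrosis factor. In unstimulated cells Traf3 and Traf2 bring the ubiquitin ligases Birc2 and Birc3 to the kinase NIK, the product of Map3k14, which is then degraded. Engaged receptors release NIK from this complex, the precursor encoded by Nfkb2 is processed, and its short form enters the nucleus with Relb. The pathway is known for the development of lymph nodes, where lymphoid tissue inducer (LTi) cells deliver lymphotoxin to stromal cells, and Relb is known for dendritic cell maturation.

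The cells came from mesenteric lymph nodes (mLN) of 12 untreated mice aged 15 days with the genotype Gm38411-iCre-hCD2 R26 tdTomato. All of the mice carry the Cre and hCD2 construct at Gm38411 and the tdTomato reporter allele at R26, and no mouse without these alleles was studied. Cells that were CD3-, B220-, CD11c+, MHC-II+ and tdTomato+ were sorted into an hCD2+ and an hCD2- fraction. Each fraction was sequenced as 1 library of single-cell 3′ RNA with 12 hashtag antibodies, each marking 1 mouse. Fraction and library therefore cannot be told apart. Cells with the same hashtag number were taken as cells of the same mouse in both fractions.

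The hCD2+ library held 7099 cells after filtering, with a median of 17486 UMIs (unique molecular identifiers, each counting 1 captured RNA molecule) per cell, and the hCD2- library held 4762 cells with a median of 23846. The libraries shared 20 called cell barcodes. Cells were clustered without the 10 genes and without 30 other genes of the pathway, and clusters were named from lists of marker genes. Although the labels call the cells DCs, clusters that carried markers of group 3 innate lymphoid cells (ILC3) or LTi cells made up 42.3% ± 6.34 of a mouse's hCD2+ cells and 5.0% ± 2.03 of its hCD2- cells (SD, n = 12 mice). The class whose markers include Prdm16, Aire, Pigr and Ncam1, called Prdm16/Aire DC-like below (Prdm16 or Aire DC-like in the figures), took 18.3% ± 4.29 of the hCD2+ and 4.47% ± 1.33 of the hCD2- cells. Its own 10 markers summed to 4585 counts per 1000000 UMIs (CPM) in the hCD2+ library. It also held the CCR7 DC markers at 2358 CPM, against 15452 CPM in CCR7 DC-like cells, and the ILC3 markers at 1356 CPM, against 9931 CPM in ILC3 or LTi-like cells. In the hCD2- library the class's own markers summed to only 2341 CPM, with 7 of 10 over 20 CPM. The CCR7 DC markers summed to 2419 CPM in these hCD2- cells, with 10 of 10 over 20 CPM, so the name is less well borne out there. Levels are given as CPM per mouse, and fold changes come from edgeR fits of UMI counts summed per mouse, with its composition scaling (TMM) and Benjamini-Hochberg adjusted p-values over all genes tested. A gene was called when its adjusted p was under 0.05.

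Lta and Ltb lie next to each other on chromosome 17 of mouse, with 6844 bp and the gene Tnf between them. In the GRCm38 annotation Ltb spans chr17:35194439-35196320 on the plus strand and Lta spans chr17:35203165-35205351 on the minus strand. The 250 bases before the RefSeq start of both genes are shown, since they encode the ligands of the lymphotoxin complex, together with those of Traf3 and Nfkb2, the other members whose windows hold a match to the kappa B consensus of 10 letters on either strand. Capitals mark that match, and the windows are chr17:35194257-35194506 (Ltb, plus strand), chr17:35205352-35205601 (Lta, minus strand), chr12:111166120-111166369 (Traf3, plus strand) and chr19:46304487-46304736 (Nfkb2, plus strand), all from RefSeq on GRCm38.p6 and written 5′ to 3′.
Ltb: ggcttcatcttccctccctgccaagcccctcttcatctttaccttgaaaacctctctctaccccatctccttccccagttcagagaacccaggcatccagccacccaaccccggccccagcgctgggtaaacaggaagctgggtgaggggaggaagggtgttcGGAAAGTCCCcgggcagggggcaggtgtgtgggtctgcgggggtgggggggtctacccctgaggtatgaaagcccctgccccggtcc
Lta: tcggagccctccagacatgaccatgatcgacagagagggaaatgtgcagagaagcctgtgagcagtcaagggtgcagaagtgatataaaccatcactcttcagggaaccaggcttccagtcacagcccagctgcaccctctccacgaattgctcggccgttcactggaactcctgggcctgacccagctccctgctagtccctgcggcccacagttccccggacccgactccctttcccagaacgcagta
Traf3: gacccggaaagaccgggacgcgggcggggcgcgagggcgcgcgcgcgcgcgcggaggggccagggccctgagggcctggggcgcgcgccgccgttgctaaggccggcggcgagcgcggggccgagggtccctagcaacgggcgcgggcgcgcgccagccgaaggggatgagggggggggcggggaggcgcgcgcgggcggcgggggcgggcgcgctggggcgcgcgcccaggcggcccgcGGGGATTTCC
Nfkb2: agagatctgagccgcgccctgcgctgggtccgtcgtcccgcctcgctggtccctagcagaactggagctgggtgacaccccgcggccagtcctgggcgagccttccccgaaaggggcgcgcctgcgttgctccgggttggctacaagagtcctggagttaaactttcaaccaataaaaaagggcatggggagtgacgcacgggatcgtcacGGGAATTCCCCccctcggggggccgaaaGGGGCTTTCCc
The match lies 87 bases before the RefSeq start of Ltb and 10 bases before that of Traf3. For Ltb and Nfkb2 the RefSeq starts differ from those of the GRCm38 annotation. The Ltb window runs to 35194506, past the annotated start at 35194439. The Nfkb2 window shown lies wholly inside the annotated gene, which starts at 46304320. In the window of Nfkb2 shown, overlapping matches begin 39 and 38 bases before the start and another begins 11 bases before it. The consensus was found in 5 of 11 windows of the 9 members with a window, and in 3.90% of 32851 windows of the same length over all genes. Nfkb2 has 3 of these windows, 1 for each RefSeq start, each with a match, and the one farthest upstream is shown. No match was found in the window of Lta, which says only that these letters are absent there. A window for Relb was not used here.

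Ltb, the membrane anchor of the lymphotoxin complex, was far higher in hCD2+ Prdm16/Aire DC-like cells than in the other dendritic cell classes tested in that library. Per mouse, the lowest, median and highest Ltb levels were 811, 917 and 1009.5 CPM in these cells, against 19.3, 32.3 and 91.6 CPM in CCR7 DC-like cells of the same library. The groups did not overlap, and Ltb was higher in all 12 mice, with a log2 fold change of 4.34 ± 0.17 (SE, adjusted p = 1.02e-19). Against hCD2+ cDC2-like cells, where the 8 mice with enough cells gave 202, 238 and 317 CPM, the difference was 1.99 ± 0.07 (adjusted p = 4.29e-17) and again showed no overlap. In the hCD2+ cDC2-like cells RNA from outside the cells could account for up to 48.9% of UMIs, or 164 CPM of Ltb. Their own marker list summed to 562 CPM, beside 854 CPM for the CCR7 DC list and 636 CPM for the ILC3 list. On the fitted scale, Ltb of the Prdm16/Aire DC-like cells was at 20.3 times the CCR7 DC-like level and 3.97 times the cDC2-like level. These values average over the clusters of the class, of which cluster 4 had a median of 1347 CPM, against 255 CPM in cluster 3 and 269.7 CPM in cluster 5, which lie near the cDC2-like level.

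In ILC3 or LTi-like cells, the classical source of lymphotoxin, Ltb ran from 885 through a median of 987 to 1088 CPM in the hCD2+ library. These values overlap those of the Prdm16/Aire DC-like cells, and the fitted difference of ILC3 or LTi-like against Prdm16/Aire DC-like cells was -0.03 ± 0.03 (SE, adjusted p = 0.506). The near equal levels again average over clusters: cluster 4, at 1309 to 1465 CPM, lay wholly above the ILC3 or LTi-like range, and clusters 3 and 5, at most 421 CPM, wholly below it. The sign depends on the scaling. On log2(CPM + 1), ILC3 or LTi-like cells were higher in 11 of 12 mice by 0.12 (two-sided exact paired permutation test over mice, adjusted p = 0.00543), and edgeR gave 0.11 with total UMIs as the only scaling (adjusted p = 0.00669) and 0.14 with cells thinned to 5000 UMIs (adjusted p = 0.0235).

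Lta showed a different pattern. It reached 163, 195 and 268 CPM (lowest, median and highest of 12 mice) in hCD2+ ILC3 or LTi-like cells, but 0, 0.81 and 2.0 CPM in Prdm16/Aire DC-like cells. All 1277 Prdm16/Aire DC-like cells together held 35 Lta UMIs beside 34221 Ltb UMIs. ILC3 or LTi-like cells were higher in all 12 mice without overlap, by 7.64 ± 0.18 (SE) on the log2 scale (adjusted p = 6.64e-25). Lta in the Prdm16/Aire DC-like cells was not above what RNA from outside the cells could give (values below), so fold changes against or of these cells in Lta are lower bounds in size.

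CCR7 DC-like cells were the dendritic cell class with the most Lta. Their Lta ran from 4.46 through 26 to 36.0 CPM in the hCD2+ library and from 12.7 through 25.8 to 45.6 CPM in the hCD2- library. Most of it was in cluster 6, with 321 of 410 Lta UMIs in 327 of 524 hCD2+ cells. In the hCD2- library cluster 6 held 638 of 677 Lta UMIs in 804 of 947 cells. The rest was in cluster 10, and the 2 clusters were not tested against each other. Against them, hCD2+ Prdm16/Aire DC-like cells were lower in 12 of 12 mice, with a log2 fold change of -4.94 ± 0.32 (adjusted p = 1.84e-14). In the hCD2- library, CCR7 DC-like cells exceeded cDC2-like cells (0, 2.29 and 4.82 CPM) by 3.67 ± 0.26 and cDC1-like cells (0, 0.59 and 2.73 CPM) by 5.47 ± 0.37, in every mouse of both comparisons (adjusted p = 1.68e-13 and 8.00e-14). Ltb moved the other way between CCR7 DC-like and cDC2-like cells: it was at 27.3, 36.6 and 59.0 CPM in CCR7 DC-like cells and at 166, 264 and 308 CPM in cDC2-like cells, a difference of -2.35 ± 0.10 (adjusted p = 8.07e-19).

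**Figure D1:**
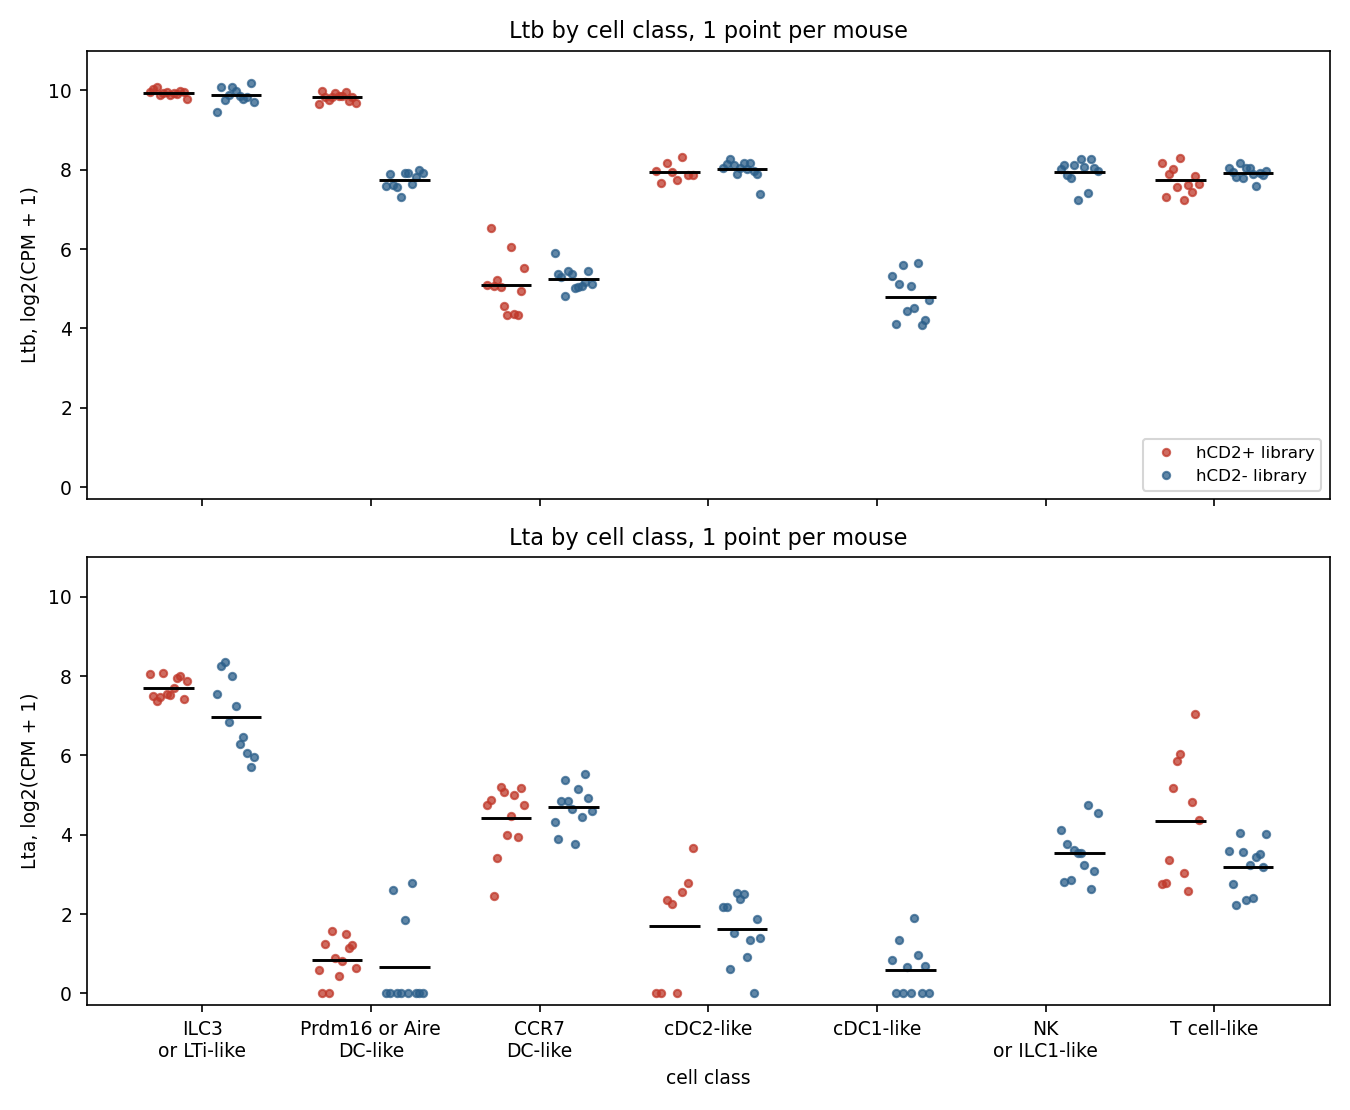
Ltb (top) and Lta (bottom) as log2(CPM + 1) in each cell class, with 1 point per mouse, the hCD2+ library in red left of the hCD2- library in blue, and a black line at the mean. Classes with fewer than 6 mice of at least 10 cells are left out. Ltb is high in ILC3 or LTi-like cells of both libraries and in hCD2+ Prdm16/Aire DC-like cells, where Lta is near 0, while CCR7 DC-like cells hold little Ltb with Lta at about 25 CPM.

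The share of Lta among the Lta and Ltb UMIs of a class puts both genes on 1 scale for a comparison of classes. Because each RNA is captured with its own efficiency, it is not a ratio of molecules in the cell. It was 0.102% in hCD2+ Prdm16/Aire DC-like cells (95% Wilson interval 0.0735 to 0.142, covering counting error only) and 17.9% in ILC3 or LTi-like cells of that library (17.6 to 18.2). In CCR7 DC-like cells it was 42.7% (39.6 to 45.8) in the hCD2+ library and 38.8% (36.5 to 41.1) in the hCD2- library. In cDC2-like cells it was 1.66% (1.13 to 2.44) and 1.02% (0.811 to 1.29), in the same order of libraries. RNA outside cells bears on these values: droplets of 10 to 100 UMIs held Lta at 62.3 CPM and Ltb at 335 CPM in the hCD2+ library, a share of 15.7%. In Prdm16/Aire DC-like cells such RNA could account for at most 3.97% of UMIs (the bound set by Cd3e), hence for at most 13.3 CPM of Ltb, against 911 CPM measured in the pooled cells, and for 2.47 CPM of Lta, against 0.932 CPM measured. Lta in these cells was thus not above that bound. In hCD2+ cDC2-like cells, where the bound given above is wider, the pooled Lta of 4.23 CPM was not above it either.

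**Figure D2:**
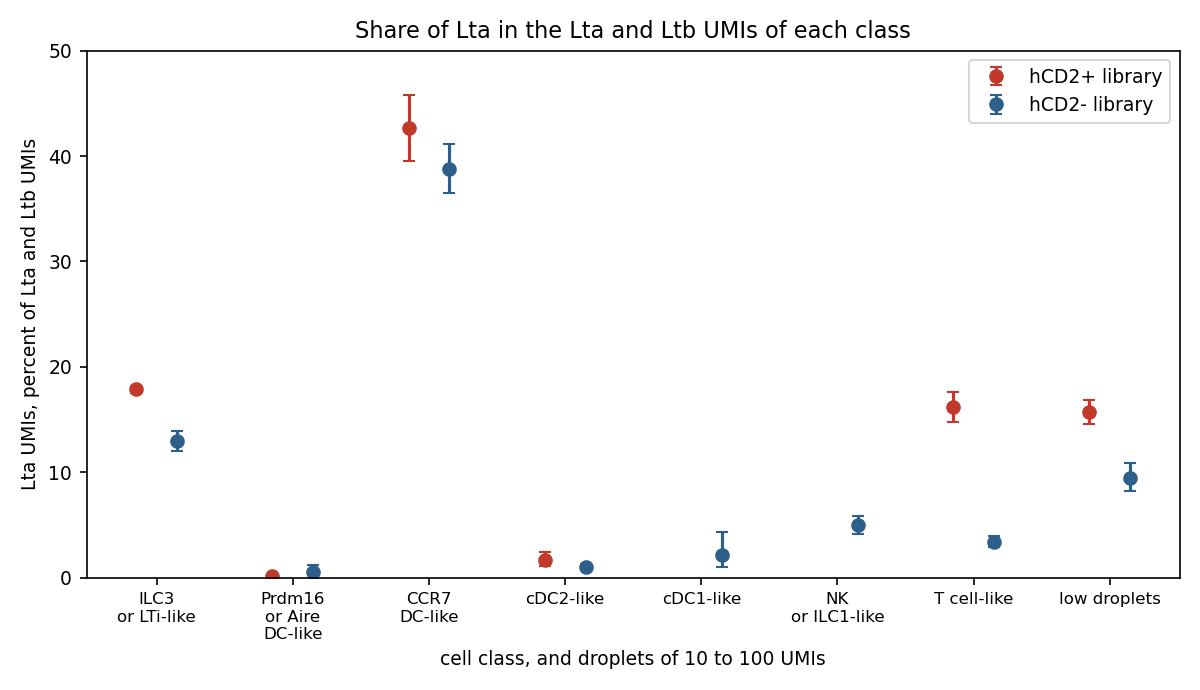
Lta UMIs as a percent of the Lta and Ltb UMIs of each class, with 95% Wilson intervals that cover counting error only, the hCD2+ library in red left of the hCD2- library in blue. Droplets of 10 to 100 UMIs are at the right end of the axis. CCR7 DC-like cells stand at 42.7% and 38.8%, and hCD2+ Prdm16/Aire DC-like cells at 0.102%.

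Counted per cell after thinning every cell to 5000 UMIs, Ltb was detected in 78.2% of 1191 hCD2+ Prdm16/Aire DC-like cells (931 cells), in 97.4% of 3001 ILC3 or LTi-like cells (2923 cells) and in 10.9% of 503 CCR7 DC-like cells (55 cells). Without thinning the shares were 87.2%, 99.7% and 34.0%, at median depths of 30947, 16693 and 31812.5 UMIs. Lta was detected in 0.588% of thinned Prdm16/Aire DC-like cells, 37.4% of ILC3 or LTi-like cells and 9.94% of CCR7 DC-like cells (2.19%, 66.3% and 31.7% without thinning). In the cDC1-like cells of the hCD2- library, 0 of 252 thinned cells had an Lta UMI. Among classes with at least 6 mice, this class had the least Lta by mean CPM, with 7 UMIs before thinning. It did not differ from Prdm16/Aire DC-like cells of that library (0.654 against 1.24 CPM, two-sided exact paired permutation test, adjusted p = 0.914). The count of 0 in 252 thinned cells allows a share of cells with an Lta UMI of up to 1.19% (3 counts of the total, for counting error only). It puts no limit on cells that express Lta. The median depth of these cDC1-like cells before thinning was 42293 UMIs.

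Tnfsf14, which encodes LIGHT, a further ligand of the lymphotoxin beta receptor, was a gene of innate lymphoid classes. It was at 25.2, 31.4 and 37.2 CPM (lowest, median, highest) in hCD2+ ILC3 or LTi-like cells and at 0, 0.17 and 1.01 CPM in Prdm16/Aire DC-like cells, a difference of 6.21 ± 0.21 (SE, adjusted p = 2.35e-21) in 12 of 12 mice. NK or ILC1-like cells of the hCD2- library had 10.8, 17.3 and 26.8 CPM, against 0, 2.52 and 7.86 CPM in T cell-like cells, higher by 2.56 ± 0.32 in 12 of 12 mice (adjusted p = 4.35e-08). Among dendritic cells it was found in cDC2-like cells: CCR7 DC-like cells of the hCD2- library, with 4 UMIs in 947 cells, lay below cDC2-like cells, with 298 UMIs in 920 cells, at a log2 fold change of -5.37 ± 0.37 (adjusted p = 7.52e-14).

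Ltbr, the receptor gene, was low in all classes and highest in myeloid ones. The lowest, median and highest levels were 8.19, 21.2 and 32.8 CPM in cDC1-like cells and 11.2, 17.9 and 22.4 CPM in cDC2-like cells of the hCD2- library, against 0, 0 and 2.32 CPM in T cell-like cells. In the 116 monocyte or macrophage-like cells of the hCD2+ library, too few per mouse for a test, pooled Ltbr was 40.5 CPM (95% Poisson interval 33.1 to 49.1, covering counting error only). Prdm16/Aire DC-like cells of the hCD2+ library had 8.90, 11.3 and 14.5 CPM, below hCD2+ cDC2-like cells with a log2 fold change of -0.66 ± 0.16 (13.2, 19 and 32.5 CPM, adjusted p = 0.000836). ILC3 or LTi-like cells, with 4.47, 5.73 and 7.64 CPM, were lower than Prdm16/Aire DC-like cells in 12 of 12 mice without overlap (-1.14 ± 0.11, adjusted p = 6.79e-11).

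Map3k14, the gene of the kinase NIK, was by class highest in CCR7 DC-like cells, at 267, 335 and 428 CPM in the hCD2- library, where cDC2-like cells had 120, 166 and 192 CPM and cDC1-like cells 49.1, 63.3 and 127 CPM. The groups did not overlap, and CCR7 DC-like cells were higher than cDC2-like cells by 1.47 ± 0.09 (SE) and than cDC1-like cells by 2.66 ± 0.13 (adjusted p = 2.71e-15 and 3.24e-17). Prdm16/Aire DC-like cells of the hCD2+ library, with 230.0, 303 and 352 CPM, were higher than hCD2+ cDC2-like cells (112, 151 and 215 CPM) by 1.03 ± 0.11 in 8 of 8 mice (adjusted p = 2.17e-08). Against CCR7 DC-like cells of that library (241, 326 and 423 CPM) they were lower, with a log2 fold change of -0.46 ± 0.08 (adjusted p = 1.30e-05), a call that was lost with total UMIs as the only scaling (-0.13, adjusted p = 0.142). The level of the Prdm16/Aire DC-like class averages over clusters, with cluster 3 above cluster 4 in every mouse (values below). Cluster 3 alone was not tested against CCR7 DC-like cells.

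Relb and Traf3 followed the same order among dendritic cell classes in both libraries. Relb, the transcription factor subunit, was at 909.6, 1015 and 1130.1 CPM in hCD2- CCR7 DC-like cells, against 213, 311 and 346 CPM in cDC2-like cells (2.16 ± 0.06, SE) and 73.4, 83.6 and 135 CPM in cDC1-like cells (3.76 ± 0.10). No mouse overlapped in either comparison (adjusted p = 8.62e-23 and 3.83e-23). Prdm16/Aire DC-like cells of the hCD2+ library stood between, at 589, 632 and 723 CPM: they were lower than CCR7 DC-like cells (786, 865 and 1094 CPM) with a log2 fold change of -0.78 ± 0.06 in 12 of 12 mice and higher than cDC2-like cells (189, 268 and 458 CPM) by 1.32 ± 0.11 in 8 of 8 mice (adjusted p = 1.65e-13 and 2.14e-10). Their class level averages over clusters, of which cluster 3 lay above cluster 4 (values below). In cluster 3 even the lowest mouse was above the hCD2+ CCR7 DC-like median of 865 CPM. Cluster 3 alone was not tested against CCR7 DC-like cells.

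Traf3, an adaptor that restrains the pathway by directing NIK to degradation, was at 627, 753 and 919 CPM in hCD2- CCR7 DC-like cells, against 270.1, 298 and 359 CPM in cDC2-like and 88.6, 123 and 181 CPM in cDC1-like cells. CCR7 DC-like cells were higher by 1.69 ± 0.07 and 2.88 ± 0.10 (SE) without overlap (adjusted p = 2.43e-19 and 3.36e-20). Prdm16/Aire DC-like cells of the hCD2+ library had 527, 594 and 638 CPM, lower than CCR7 DC-like cells (595, 704 and 845 CPM) with a log2 fold change of -0.58 ± 0.05 and higher than cDC2-like cells (237, 293 and 349 CPM) by 1.14 ± 0.06 (adjusted p = 5.60e-11 and 1.59e-13). For Traf3, too, the class level averages over a higher cluster 3 and a lower cluster 4 (values below), and cluster 3 alone was not tested against CCR7 DC-like cells. Across the 12 combinations of class and library with enough mice, Traf3 was the second most similar of 8641 genes to Relb (Pearson r = 0.99 on log2 mean CPM), after Nfat5 (0.99). These points share 2 libraries and their depths, and the value is a description. Traf3 overlaps a gene on the other strand, 4930595D18Rik, and the counting of strand was not given in the sources used here.

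Birc3, one of the ubiquitin ligases, kept this order by mean CPM among dendritic cell classes in both libraries. Traf2, the adaptor that joins Traf3 to those ligases, departed from it in the hCD2+ library. In the hCD2- library mean Traf2 was 53.1 CPM in CCR7 DC-like, 44.4 CPM in Prdm16/Aire DC-like and 35.9 CPM in cDC2-like cells. Traf2 was highest in hCD2+ Prdm16/Aire DC-like cells, at 72.0, 81.0 and 93.7 CPM, against 36.3, 47.5 and 63.9 CPM in CCR7 DC-like cells and 22.3, 41.9 and 65.8 CPM in cDC2-like cells. It did not overlap with either class and was higher by 0.45 ± 0.08 and 1.07 ± 0.11 (SE, adjusted p = 1.60e-05 and 1.15e-08). Birc3 was lower in those cells, at 353, 394 and 474 CPM, than in CCR7 DC-like cells, at 619.8, 677 and 822 CPM, and ILC3 or LTi-like cells, at 569, 692 and 754 CPM. The difference from CCR7 DC-like cells was -1.10 ± 0.06 (adjusted p = 9.59e-17), and ILC3 or LTi-like cells exceeded the Prdm16/Aire DC-like cells by 0.63 ± 0.05 (adjusted p = 2.15e-12), in 12 of 12 mice both times.

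Nfkb2, the gene of the precursor that is processed in this pathway, lay in hCD2+ Prdm16/Aire DC-like cells between CCR7 DC-like and cDC2-like cells. Its lowest, median and highest levels were 155, 165 and 184 CPM in hCD2+ Prdm16/Aire DC-like cells, 160.5, 198 and 216 CPM in CCR7 DC-like cells and 104, 118 and 131 CPM in cDC2-like cells. The fitted differences were -0.56 ± 0.05 from CCR7 DC-like and 0.59 ± 0.06 from cDC2-like cells (SE, adjusted p = 1.56e-10 and 9.44e-09). The first was no longer called in cells thinned to 5000 UMIs (-0.20, adjusted p = 0.0810). T cell-like cells of the hCD2- library had the lowest Nfkb2, at 33.1, 38.8 and 44.0 CPM, and ILC3 or LTi-like cells exceeded them by 2.21 ± 0.09 in 11 of 11 mice (adjusted p = 1.56e-19).

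**Figure D3:**
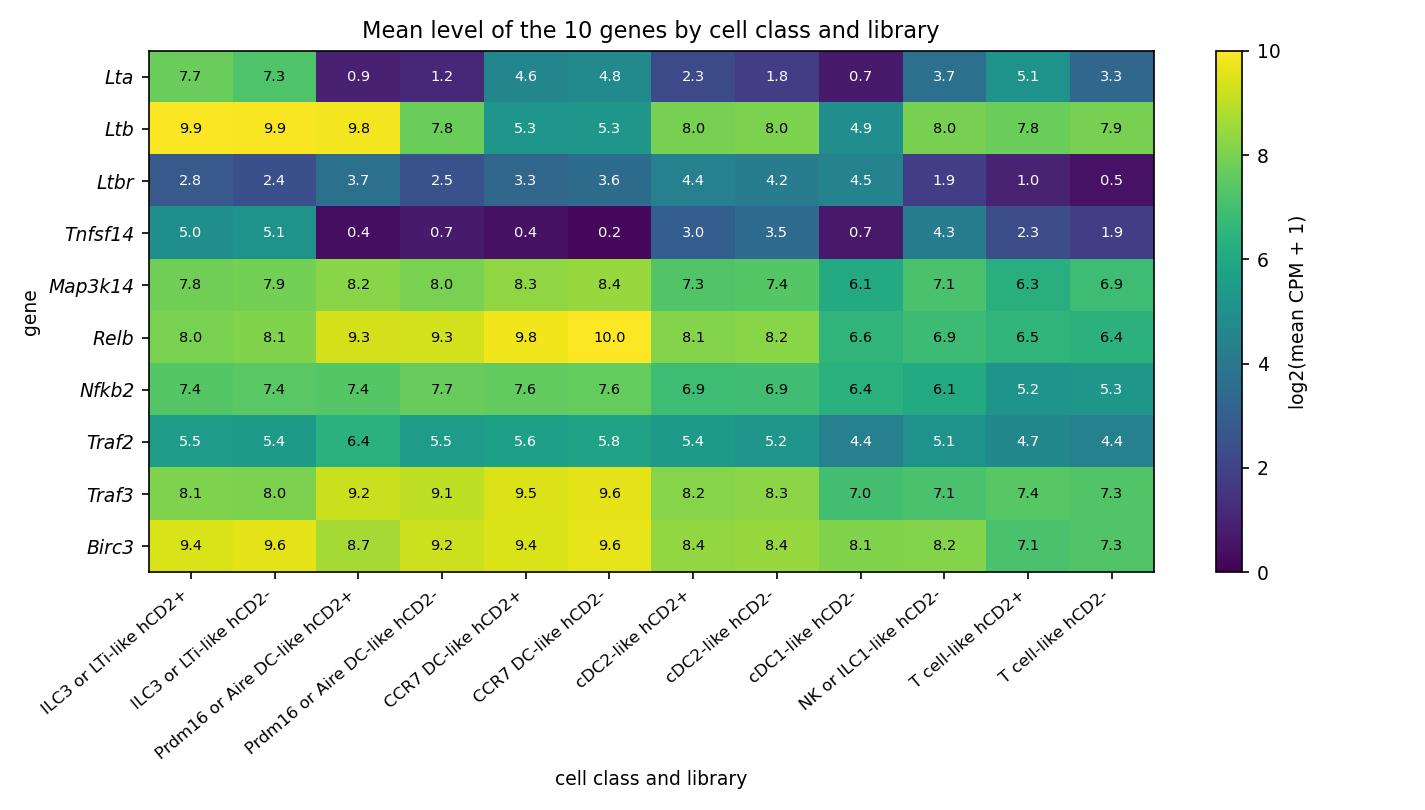
Mean level of the 10 genes, as log2(mean CPM + 1) with the value written in each cell, for every class and library with at least 6 mice of at least 10 cells. Colours and values compare classes within a gene, since genes differ in how well their RNA is captured. Relb and Traf3 are highest in CCR7 DC-like cells, Ltb in ILC3 or LTi-like and hCD2+ Prdm16/Aire DC-like cells, and Tnfsf14 in ILC3 or LTi-like cells.

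Counted over the 10 genes, the class comparisons called most members, as they called most genes. In Prdm16/Aire DC-like against CCR7 DC-like cells of the hCD2+ library 8 of 9 members tested were called, 2 higher (Ltb and Traf2) and 6 lower, where 75.1% of all genes tested were called, 40.7% higher and 34.5% lower. Ltbr, at 0.08 ± 0.12 (SE), was not called, but was higher in 12 of 12 mice by CPM and was called with total UMIs as the only scaling (0.41, adjusted p = 0.00303). Against cDC2-like cells 8 of 8 were called, 7 higher and Ltbr lower (60.9% of all genes, 32.5% higher and 28.4% lower), and the Birc3 difference (0.37) was lost in thinned cells (0.26, adjusted p = 0.0605). In hCD2- CCR7 DC-like against cDC2-like cells 10 of 10 were called, 7 higher and Ltb, Tnfsf14 and Ltbr lower (78.9% of all genes, 37.3% higher and 41.6% lower). The Ltbr difference, -0.32 ± 0.14 (adjusted p = 0.0436), was lost with RLE size factors (adjusted p = 0.0573) and with DESeq2 (adjusted p = 0.0605). Against cDC1-like cells 9 of 9 were called, 8 higher and Ltbr lower (79.2% of all genes, 38.5% higher and 40.7% lower), and the Ltb difference there, 0.71 ± 0.17 (adjusted p = 0.00047), was lost with coarser clusters (0.03, adjusted p = 0.860).

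For the innate lymphoid classes, 9 of 10 members were called in ILC3 or LTi-like against Prdm16/Aire DC-like cells, where 81.8% of all genes were, 40.8% higher and 41% lower. Lta, Tnfsf14 and Birc3 were higher and Ltbr, Map3k14, Relb, Nfkb2, Traf2 and Traf3 lower, by up to -1.50 ± 0.04 (SE) for Relb (adjusted p = 8.97e-23). For Nfkb2 the call was lost with total UMIs as the only scaling (-0.01, adjusted p = 0.804), and its CPM was higher in 6 and lower in 6 of 12 mice. Against CCR7 DC-like cells 10 of 10 were called, with the 3 ligands higher and the other 7 lower (82.8% of all genes, 44.5% higher and 38.2% lower), but Traf2 (-0.07) and Birc3 (-0.01) were not called with total UMIs as the only scaling. In hCD2- ILC3 or LTi-like against T cell-like cells 8 of 8 tested members were higher (65.2% of all genes called, 32.8% higher and 32.4% lower), from Traf3 at 0.81 ± 0.10 to Lta at 4.16 ± 0.31. In NK or ILC1-like against T cell-like cells 6 of 8 were called (56.2% of all genes, 28.8% higher and 27.4% lower), 5 higher and Traf3 lower at -0.20 ± 0.08 (adjusted p = 0.0431), a call that was lost without T cell-like cluster 7 (adjusted p = 0.0521), after thinning, with coarser clusters and with total UMIs as the only scaling. Ltb (-0.01 ± 0.10) and Map3k14 (0.17 ± 0.09) were not called.

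**Figure D4:**
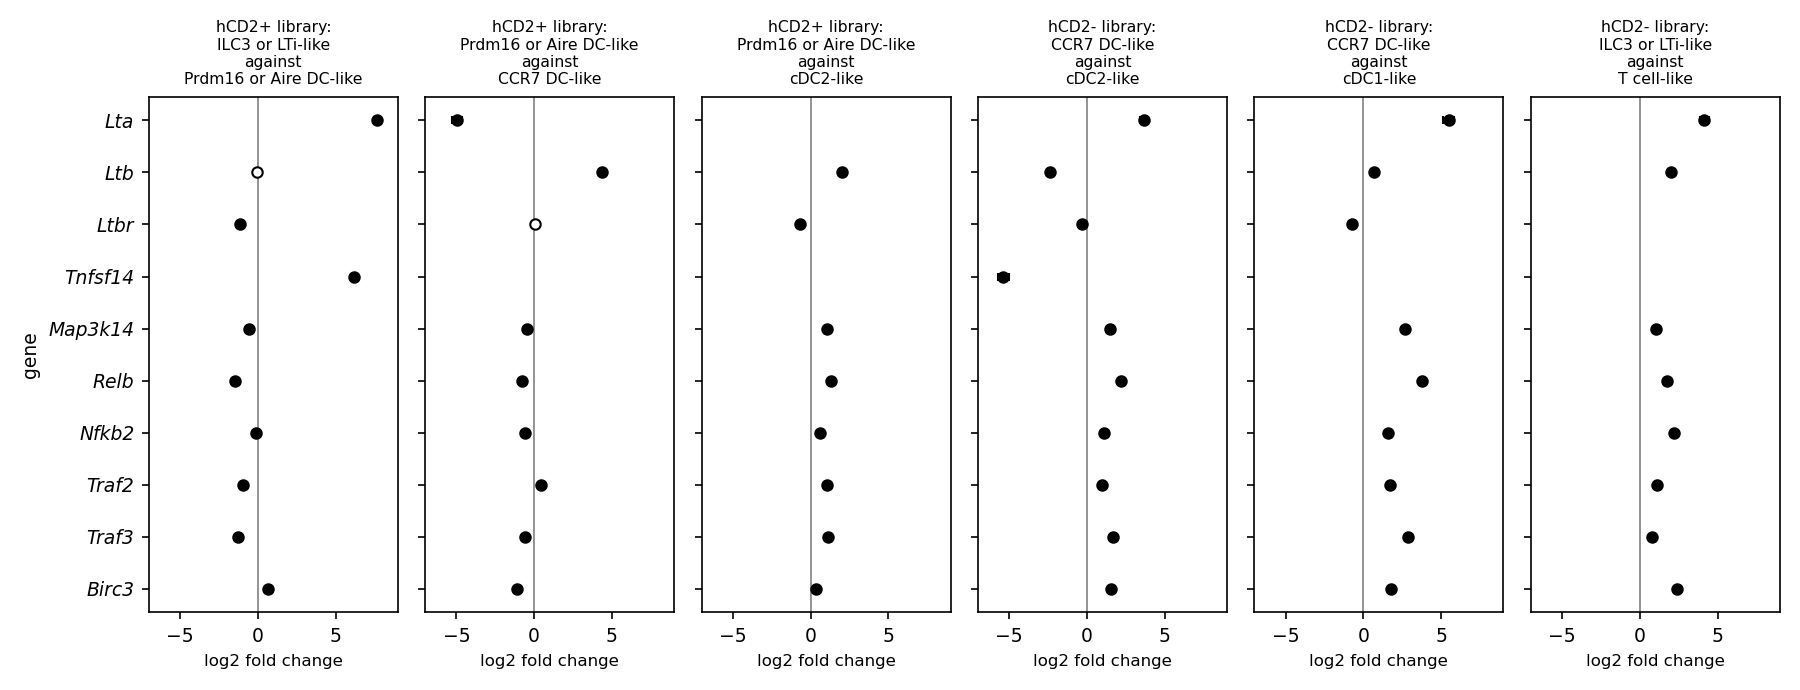
Log2 fold changes of the 10 genes in 6 comparisons between classes, first-named class over the second, from edgeR with TMM scaling. Bars are standard errors, filled points passed an adjusted p of 0.05 and open points did not, and genes without a point were not tested. Lta and Ltb point in opposite directions in Prdm16/Aire DC-like against CCR7 DC-like cells (-4.94 and 4.34) and in CCR7 DC-like against cDC2-like cells (3.67 and -2.35).

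The scaling shifts all fold changes of these comparisons together. With total UMIs as the only scaling, the median of all genes tested was 0.39 in Prdm16/Aire DC-like against CCR7 DC-like cells, 0.59 in ILC3 or LTi-like against CCR7 DC-like cells, -0.45 in CCR7 DC-like against cDC2-like cells and -0.33 in CCR7 DC-like against cDC1-like cells. Fold changes under TMM are relative to medians of 0.07, 0.10, -0.06 and -0.03 in these comparisons. The share of calls that were higher was then 72.7%, 72.0%, 28.1% and 36.3%, against 54.2%, 53.8%, 47.3% and 48.6% under TMM.

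Between the fractions, 5 of 8 tested members were called in the Prdm16/Aire DC-like class, where 51.7% of all genes were called, 25.5% higher and 26.2% lower. Ltb was at 811, 917 and 1009.5 CPM in hCD2+ cells and at 158, 225 and 256 CPM in hCD2- cells, higher by 2.12 ± 0.07 (SE) in 11 of 11 mice without overlap (adjusted p = 1.70e-18). Traf2, at 72.0, 81.0 and 93.7 CPM in hCD2+ cells against 32.5, 44.1 and 59.5 CPM in hCD2- cells, was higher by 0.92 ± 0.09 (adjusted p = 7.16e-10), and Ltbr by 1.21 ± 0.30 (8.90, 11.3 and 14.5 against 0, 2.98 and 11.8 CPM, adjusted p = 0.00127). Nfkb2 (-0.25 ± 0.07, adjusted p = 0.00305) and Birc3 (-0.54 ± 0.12, adjusted p = 0.00025) were lower in hCD2+ cells. After thinning to 5000 UMIs 2 members were called, Ltb and Birc3, while Traf2 (0.49, adjusted p = 0.0511) and Nfkb2 (-0.19, adjusted p = 0.296) were lost and Ltbr was too low to test.

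The class, however, was made of different clusters in the fractions. Of the hCD2+ cells, 348 were in cluster 3 (Aire among its leading genes), 650 in cluster 4 (Pigr) and 279 in cluster 5 (Ncam1), while 201 of the 216 hCD2- cells were in cluster 5. Over all genes the calls fell from 5099 in the whole class to 257 within cluster 5 alone, where 0 members were called by edgeR. There Ltb was at 142, 269.7 and 421 CPM in hCD2+ cells and at 168, 224 and 251 CPM in hCD2- cells, overlapping, with a difference of 0.27 ± 0.14 (SE, adjusted p = 0.337), and Traf2 differed by 0.19 ± 0.16 (adjusted p = 0.615). The Ltb and Traf2 differences between fractions were called over the whole class and not within cluster 5, where fewer of all genes were called.

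Within the hCD2+ library clusters 3 and 5 were each compared with cluster 4. Cluster 3 against cluster 5 was not tested. Cluster 4 held most of the Ltb: 1309, 1347 and 1465 CPM (lowest, median, highest of 12 mice), against 108, 255 and 368 CPM in cluster 3 and 142, 269.7 and 421 CPM in cluster 5. Against cluster 4, Ltb was lower, with log2 fold changes of -2.21 ± 0.11 in cluster 3 and -2.36 ± 0.11 in cluster 5 (SE, adjusted p = 6.80e-17 and 1.10e-17), without overlap. Cluster 3, the Aire cluster, was higher than cluster 4 in Map3k14 (1.59 ± 0.09), Traf3 (1.44 ± 0.06), Relb (1.28 ± 0.05) and Traf2 (0.98 ± 0.07), each in 12 of 12 mice without overlap. Its Relb, at 880.1, 1029.6 and 1146 CPM, overlapped the range of hCD2+ CCR7 DC-like cells and passed its upper end. In all, 8 of 8 tested members were called in cluster 3 against cluster 4 (67% of all genes, 33.1% higher and 33.9% lower) and 7 of 8 in cluster 5 against cluster 4 (64.2%, 32.1% higher and 32.2% lower), where Birc3 was higher by 0.71 ± 0.09 and Traf2 lower at -0.64 ± 0.11. The small Nfkb2 difference of cluster 5 against cluster 4 (0.16, adjusted p = 0.0343) was lost with the mouse as a block (adjusted p = 0.0595) and in thinned cells (adjusted p = 0.0860), as was that of cluster 3 against cluster 4 in thinned cells (0.23 in place of 0.42, adjusted p = 0.0771).

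**Figure D5:**
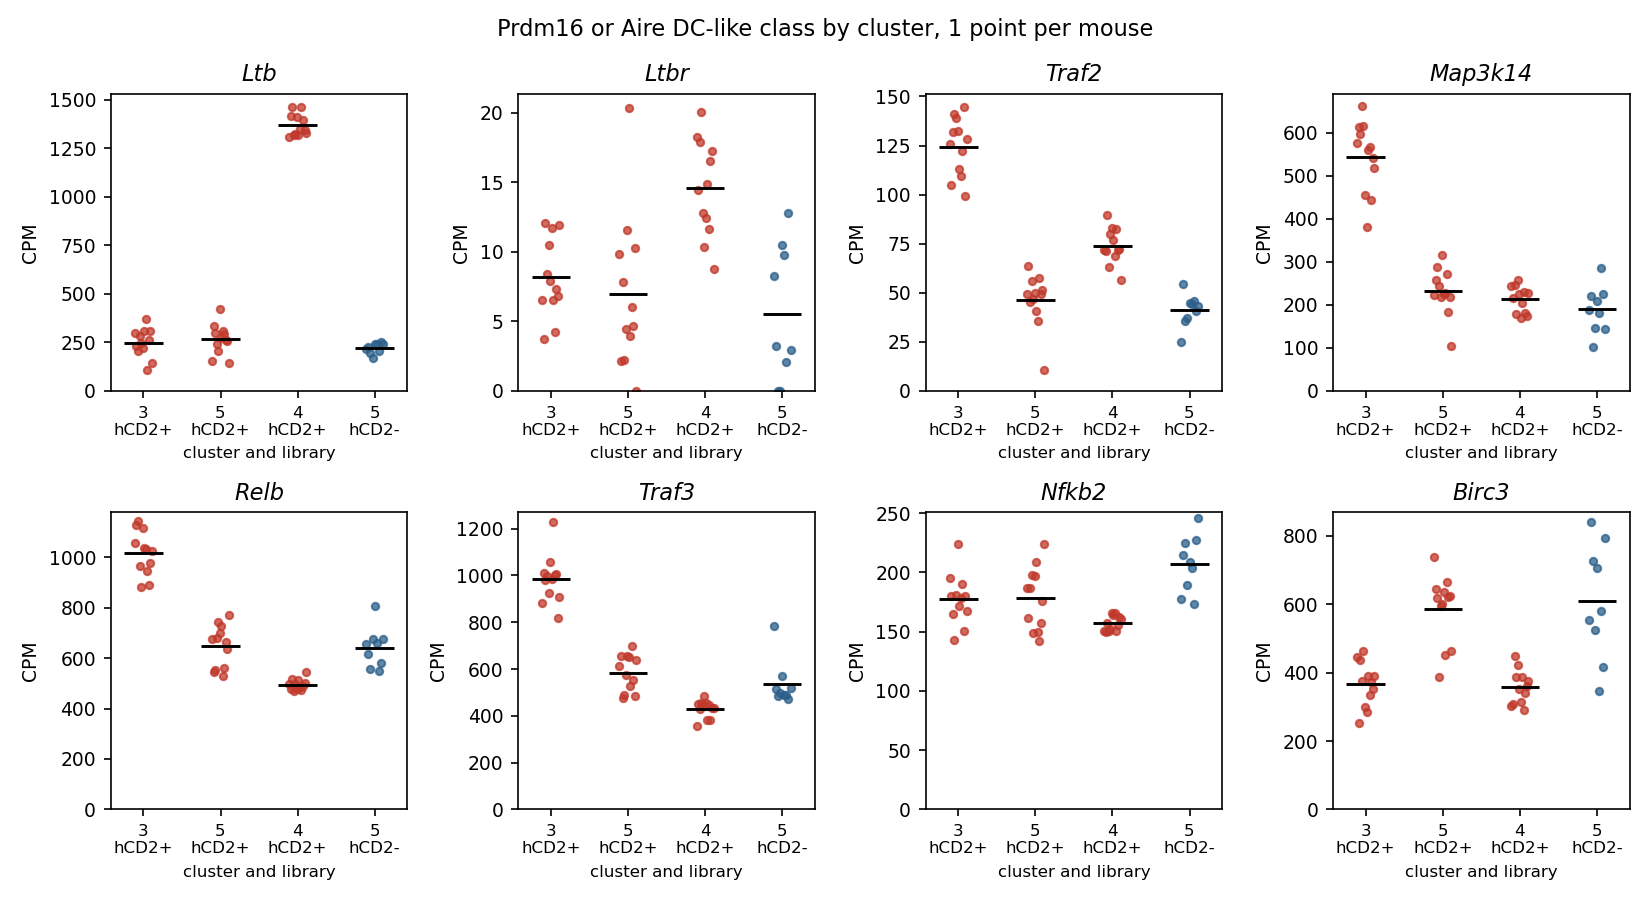
CPM of 8 of the genes in the clusters of the Prdm16/Aire DC-like class, with 1 point per mouse and a black line at the mean. From left to right are clusters 3, 5 and 4 of the hCD2+ library in red and cluster 5 of the hCD2- library in blue; clusters 3 and 4 of the hCD2- library held 14 cells and 1 cell. Ltb is at 1309 to 1465 CPM in cluster 4 and at most 421 CPM in the other clusters, while Map3k14, Relb, Traf2 and Traf3 are highest in cluster 3.

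A further cluster of 222 hCD2+ cells and 8 hCD2- cells, with Itgb8 among its leading genes, carried 8 of 10 CCR7 DC markers beside 3 Prdm16/Aire DC markers and was left without a class. Over the 8 mice with enough hCD2+ cells its Ltb averaged 118 ± 33.8 CPM, its Traf3 1036 ± 144 CPM, its Map3k14 522 ± 35.1 CPM and its Lta 2.48 ± 2.84 CPM (SD). Its Traf3 and Map3k14 were on the level of cluster 3, and its Ltb lay between CCR7 DC-like cells and cluster 3. These levels were not tested.

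In the ILC3 or LTi-like class, cluster 0 (led by Arg1) and cluster 1 (with Sema3d among its leading genes) differed in the ligands. Lta was at 222, 276 and 340.3 CPM in cluster 0 and at 94.3, 139 and 230.0 CPM in cluster 1, higher by 0.98 ± 0.12 (SE) in 12 of 12 mice, although the ranges overlapped (adjusted p = 7.33e-08). Tnfsf14 was higher by 0.68 ± 0.08 (adjusted p = 1.11e-07), Ltb by 0.19 ± 0.03 (adjusted p = 4.20e-05) and Relb was lower at -0.34 ± 0.06 (adjusted p = 1.71e-05). These were 4 of 10 members, where 26.7% of all genes were called, 12.8% higher and 13.9% lower. With the mouse as a block 6 were called, adding Map3k14 (-0.15, adjusted p = 0.0434) and Birc3 (-0.12, adjusted p = 0.00942). Cluster 12 (led by Iigp1 and other interferon-induced genes) against cluster 1 gave 3 calls among 10 (16.6% of all genes, 8.83% higher and 7.74% lower), Lta at 0.84 ± 0.28, Tnfsf14 at 0.76 ± 0.19 and Relb at -0.30 ± 0.09, but none with the mouse as a block (adjusted p = 0.176, 0.132 and 0.130).

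Between the fractions of the other classes few differences were seen. In ILC3 or LTi-like cells 0 of 10 members were called by edgeR, where 4.27% of all genes were, 1.8% higher and 2.47% lower (at an unadjusted p under 0.05 there were 3 members, and DESeq2 called Birc3). Lta there ran from 163 to 268 CPM in hCD2+ cells and from 51.1 to 328 CPM in hCD2- cells, which covers the hCD2+ range (0.48 ± 0.22, SE, adjusted p = 0.244), and Ltb from 885 to 1088 CPM and from 700 to 1156 CPM (0.01 ± 0.06, adjusted p = 0.976). In CCR7 DC-like cells 2 of 9 were called (18.7% of all genes, 9.96% higher and 8.73% lower): Relb (-0.19 ± 0.06, adjusted p = 0.0157) and Birc3 (-0.20 ± 0.05, adjusted p = 0.00832) were lower in hCD2+ cells, each in 11 of 12 mice. The Birc3 call was lost in thinned cells (-0.18, adjusted p = 0.0889) and in cluster 6 alone (-0.12, adjusted p = 0.279). Clusters 6 and 10 held 327 and 197 of the hCD2+ cells of the class, and 804 and 143 of its hCD2- cells. With cluster 13, the Itgb8 cluster, added to the class, Ltb became higher (0.75, adjusted p = 0.000148) and Lta lower (-0.65, adjusted p = 0.0290) in hCD2+ cells. In cDC2-like cells 0 of 9 were called by edgeR and by DESeq2 (17.4% of all genes by edgeR, 9.58% higher and 7.86% lower; 0 members at an unadjusted p under 0.05). In the hCD2+ cDC2-like cells the 9 T cell markers summed to 15.3 to 701 CPM per mouse, against 35.3 to 179.9 CPM in hCD2- cells, and their part in the result was not tested.

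The difference between fractions itself differed between the Prdm16/Aire DC-like and the CCR7 DC-like class for 6 of 9 members (33.6% of all genes, 18.5% higher and 15% lower): Ltb by 2.24 ± 0.21, Ltbr by 1.49 ± 0.32, Traf2 by 1.09 ± 0.13, Traf3 by 0.32 ± 0.11, Relb by 0.27 ± 0.09 and Nfkb2 by -0.21 ± 0.08 (SE), the last with an adjusted p of 0.0492 that became 0.0538 with the mouse as a block. Nfkb2 was also lost without a filter and with at least 20 cells per mouse, and its sign turned in thinned cells (0.10). Traf3 was lost in thinned cells (adjusted p = 0.228), with at least 20 cells (0.267), with coarser clusters (0.0886) and with total UMIs as the only scaling (0.0837). Relb was lost under the last 3 of these (adjusted p = 0.210, 0.169 and 0.0729). Birc3 was gained under 4 alternatives and Map3k14 under 2. Between the ILC3 or LTi-like and the CCR7 DC-like class 0 of 10 differed by edgeR and by DESeq2 (0 at an unadjusted p under 0.05, 3.84% of all genes called, 1.85% higher and 1.99% lower). Over all cells of a mouse 10 of 10 members were called, 9 higher in hCD2+ cells and Ltbr lower (67.8% of all genes, 33.9% higher and 33.9% lower), a sum that also holds the different makeup of the fractions; fewer cells of a type and less RNA per cell cannot be told apart in it. In thinned cells the calls of Ltbr (-0.11 in place of -0.24, adjusted p = 0.575) and Relb (0.072 in place of 0.17, adjusted p = 0.384) were lost.

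Ordered by mean CPM within a library, neighbouring classes differed in 62 of 100 pairs (two-sided exact paired permutation tests over 8 to 12 mice on log2(CPM + 1), adjusted p under 0.05). For Relb the hCD2- order was CCR7 DC-like, Prdm16/Aire DC-like, cDC2-like, ILC3 or LTi-like, NK or ILC1-like, cDC1-like and T cell-like, in which cDC2-like and ILC3 or LTi-like cells (adjusted p = 0.247) did not differ beyond their spread, nor did NK or ILC1-like and cDC1-like cells (adjusted p = 0.0512) or cDC1-like and T cell-like cells (adjusted p = 0.403). NK or ILC1-like and T cell-like cells, no neighbours in this order, differed in Relb by edgeR (0.38 ± 0.09, SE, adjusted p = 0.000479). For Ltb the hCD2- order was ILC3 or LTi-like, cDC2-like, NK or ILC1-like, T cell-like, Prdm16/Aire DC-like, CCR7 DC-like and cDC1-like, and only the steps from the first to the second class and from the fifth to the sixth passed the test. For Ltbr cDC1-like and cDC2-like cells did not differ (adjusted p = 0.272). For Birc3 CCR7 DC-like and ILC3 or LTi-like cells did not differ in either library (adjusted p = 0.939 in hCD2+ and 0.690 in hCD2-). For Map3k14 the top pair, CCR7 DC-like and Prdm16/Aire DC-like cells, did not differ in the hCD2+ library (adjusted p = 0.217) and differed in the hCD2- library (adjusted p = 0.0336).

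In T cell-like cells of the hCD2+ library Lta ran from 4.95 through 19.6 to 130.2 CPM over 11 mice. Their cluster 7, with 79 of the 373 cells and a median of 62358 UMIs, held 367 of the 412 Lta UMIs of the class. These cells came through a gate meant to be CD3-, doublets within a mouse were not removed, and their part in the result was not tested. The other clusters of the class, 9 and 22, held 11 and 34 Lta UMIs.

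Of the 30 other pathway genes, the 19 adaptors, kinases and canonical NF-kB genes went with the members in CCR7 DC-like cells. In the hCD2- library, with cDC2-like cells as the comparison, 15 of 19 were higher and 1 lower (84.2% called beside 78.9% of all genes, median log2 1.38 against -0.06 over all genes), led by Birc2, the ligase that acts with Birc3 (525 ± 31.5 against 98.0 ± 10.3 CPM, log2 2.81), Traf1 (908 ± 76.0 against 327 ± 28.0 CPM, 1.86) and the kinase Ikbkb (371 ± 25.9 against 178 ± 13.3 CPM, 1.45). Of the 11 upstream ligands and receptors 7 were tested, 4 higher and 2 lower, and Tnfrsf11a, the receptor of RANKL, was higher by 3.13 ± 0.10 (240 ± 36.4 against 36.0 ± 7.91 CPM, SD, n = 12 mice each). Against cDC1-like cells 17 of 19 were higher and 1 lower (94.7% called beside 79.2% of all genes).

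In hCD2+ Prdm16/Aire DC-like against CCR7 DC-like cells 4 of the 19 were higher and 13 lower (89.5% called beside 75.1% of all genes, median -0.33 against 0.07 over all genes), including Ikbkb (114 ± 8.91 against 339 ± 25.7 CPM, -1.89 ± 0.05), Traf6 (-1.72) and Traf1 (-1.42), and of 6 upstream genes 1 was higher and 5 lower, including Cd40, a receptor that also acts through NIK (117 ± 11.2 against 629 ± 112 CPM, -2.76 ± 0.09). Against cDC2-like cells 9 of 19 were higher and 2 lower, a share of 57.9% called beside 60.9% of all genes, led by Birc2 (618 ± 45.8 against 137 ± 45.9 CPM, 2.30 ± 0.13) and Tnip1 (2.08). ILC3 or LTi-like cells exceeded Prdm16/Aire DC-like cells in Nfkb1, the gene of the canonical precursor (2383 ± 157 against 817 ± 84.2 CPM, 1.41 ± 0.05), and were lower in Birc2 (-1.28) and Chuk, a kinase subunit that NIK activates (-1.09), with 6 of 19 higher and 10 lower, a share of 84.2% called beside 81.8% of all genes. Between the fractions, the Prdm16/Aire DC-like class was higher in hCD2+ cells for 7 of 19 and lower for 8 (78.9% called beside 51.7% of all genes, 25.5% higher and 26.2% lower), and among 7 upstream genes 4 were higher and 1 lower, with Tnfrsf1a, a receptor of lymphotoxin alpha, at 37.9 ± 6.20 against 10.7 ± 4.20 CPM (1.83 ± 0.17) and Tnf, which lies between Ltb and Lta, at 55.9 ± 19.4 against 4.43 ± 4.63 CPM (3.39 ± 0.38). Within cluster 5, which held nearly all hCD2- cells of the class, Tnfrsf1a was at 9.60 ± 4.42 CPM in hCD2+ cells and 9.84 ± 4.09 CPM in hCD2- cells, and Tnf at 4.81 ± 5.34 and 5.68 ± 4.68 CPM (SD, n = 12 and 9 mice), both too low to test.

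By the same measure of likeness across 12 class and library points, the genes most like the members were Cish for Lta (Pearson r = 0.94), Nab1 for Tnfsf14 (0.97), Unc93b1 for Ltbr (0.96), Crebl2 for Map3k14 (0.96), Apobec1 for Traf2 (0.95), Relb for Traf3 (0.99), and Trip10 for both Nfkb2 (0.97) and Birc3 (0.96). Birc2 was the third for Map3k14 (0.95) and Nfkb2 the third for Birc3 (0.95).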

How the data were processed

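The hCD2+ and the hCD2- fraction were each measured as 1 single-cell 3′ RNA library with its hashtag library. The authors deposited UMI counts per gene and barcode, made with Cell Ranger 8.0.1 on mm10 per the submitters' processing notes, together with the hashtag assignment of each called cell. Nothing else about the counting was given in the sources used here. The deposited tables gave 8801 called cells in hCD2+ and 5603 in hCD2-, of which 7415 and 4907 carried a single hashtag. Cells with multiplet, blank or unassigned hashtags were left out, as were cells with fewer than 500 genes or more than 10% mitochondrial UMIs. No doublet caller was run, so doublets within a mouse remain. The kept cells held 7269488 to 17966298 UMIs per mouse in hCD2+ and 5914558 to 16238728 in hCD2-.

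Cells were clustered in scanpy 1.11.5 by the Leiden method at resolution 1.0, on 30 principal components of 2000 variable genes and a graph of 15 neighbours. A cluster was named from its list when at least 3 markers were at 2 times the level of the other cells and in at least 10% of its cells. Clusters that carried markers of other classes, or few UMIs, stayed unnamed, and a differently rebuilt naming could move cells between classes. Counts were summed per mouse, class and library where at least 10 cells and 6 mice per group were present, and tested with edgeR 4.0.16 (quasi-likelihood test, TMM scaling, filterByExpr, Benjamini-Hochberg adjustment over all genes) in R 4.3.3. Standard errors given with edgeR log2 fold changes were derived from the test. Each is the absolute log2 fold change divided by the square root of the F statistic. CPM are UMIs of a gene per 1000000 UMIs of that mouse's class, without TMM. Neighbouring classes were compared with two-sided exact paired permutation tests over mice, and the 100 p-values were adjusted together. With 12 pairs the smallest p such a test can give is 0.000488. The edgeR fit was checked on counts simulated with the same dispersion for every gene and no mouse effect. That check does not cover the pairing by mouse or the spread of real counts.

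The same hashtag was taken as the same mouse in both libraries. Deviations of same-numbered samples correlated at 0.101 to 0.583 over 6780 genes in all 12 pairs, and 9 of 12 correlated best with their own number. The fit with the mouse as a block was an alternative, beside RLE size factors, no filter, DESeq2 1.42.0, cells thinned to 5000 UMIs (5964 hCD2+ and 4333 hCD2- cells had enough), at least 20 cells per mouse and Leiden resolution 0.5. Total UMIs as the only scaling and the changes of single clusters were added after seeing the data.

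The 10 members, the 30 other pathway genes and the marker lists were chosen with earlier results of these data known. All members are named, and of the other pathway genes at most the 4 called genes with the smallest adjusted p in a comparison. For likeness the 3 genes of highest correlation were taken among those with at least 20 CPM in 1 combination. The likeness result for Ltb is not reported here. Promoter windows are from RefSeq on GRCm38.p6, and gene positions from the GRCm38 annotation. Intervals cover counting error only.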

Additional observations from a re-analysis of the deposited data

Results flagged for a closer look

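Ltbr in hCD2+ cDC2-like cells stood out in 1 mouse, at 32.5 CPM against 13.2 to 22.3 CPM in the other 7 of 8 mice. The gap to the next mouse passed Dixon's limit. The check covered the 10 members in hCD2+ cDC2-like cells and in hCD2+ cluster 12, which made 20 groups of 8 mice. Other classes and clusters with few mice were not checked. Among the 20 groups this was 1 such mouse, and chance alone gives about 1 in 20.

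For 6 members the difference between hCD2+ and hCD2- cells was not the same in the Prdm16/Aire DC-like class as in the CCR7 DC-like class, by edgeR's test of the interaction with adjustment over all genes. The differences of log2 fold changes were 2.24 for Ltb (adjusted p = 1.13e-12), 1.49 for Ltbr (0.000182), 1.09 for Traf2 (2.09e-09), 0.32 for Traf3 (0.0229), 0.27 for Relb (0.0190) and -0.21 for Nfkb2 (0.0492, and 0.0538 with the mouse as a block). Traf3 was lost under 4 alternatives and Relb under 3. Nfkb2 was also lost without a filter and with at least 20 cells per mouse, and was 0.10 in thinned cells. The hCD2+ and hCD2- cells of the Prdm16/Aire DC-like class lie in different clusters, and the hCD2- cells were nearly all in cluster 5. Within that cluster 0 members were called between the fractions by edgeR, where 257 of all genes were called in place of 5099.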

How the results depend on the processing

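Of 1140 values of single members under the alternatives, 1044 kept their direction and their side of the threshold, 41 lost a call, 16 gained one and 39 changed sign. The causes were not tested, except that thinning and smaller classes leave fewer UMIs by construction. The number of members called changed by more than 1.5 times in these cases: ILC3 or LTi-like fractions 0, with DESeq2 1; Prdm16/Aire DC-like fractions 5, thinned 2 and within cluster 5 alone 0; CCR7 DC-like fractions 2, thinned 1, with cluster 13 added 4, within cluster 6 alone 1; CCR7 DC-like against cDC1-like 9, thinned 5; NK or ILC1-like against T cell-like 6, thinned 3; and cluster 12 against cluster 1 3, with the mouse as a replicate block 0. The block also removed the call of Nfkb2 in the interaction of the Prdm16/Aire DC-like and CCR7 DC-like classes (adjusted p = 0.0538) and in cluster 5 against cluster 4 (adjusted p = 0.0595), added Map3k14 and Birc3 in cluster 0 against cluster 1, and changed no other member's call in the class and cluster comparisons.

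Sign changes were nearly all of small uncalled differences (log2). Between fractions of ILC3 or LTi-like cells they were Ltb at -0.037 thinned, -0.0042 with RLE and -0.0029 with DESeq2, Map3k14 at 0.013 and Traf2 at -0.079 thinned, and Traf3 at 0.032 thinned, 0.012 with the block, 0.059 without a filter, 0.014 at Leiden resolution 0.5 and 0.044 with total UMIs only. Between fractions of the Prdm16/Aire DC-like class Relb was -0.063 with at least 20 cells, -0.033 at resolution 0.5 and -0.0037 with total UMIs only. Between fractions of CCR7 DC-like cells Lta was 0.086 in cluster 6 alone, and with cluster 13 added Ltb was 0.75 (called), Map3k14 0.16 and Traf3 0.062. Between thinned cDC2-like fractions Ltb was 0.038, Relb 0.079, Nfkb2 0.10 and Birc3 0.0042. In ILC3 or LTi-like against Prdm16/Aire DC-like cells Ltb was 0.14 thinned (called), 0.017 without a filter and 0.11 with total UMIs only (called). In NK or ILC1-like against T cell-like cells Ltb was 0.12 thinned, 0.17 at resolution 0.5 and 0.029 with total UMIs only. In the interaction of ILC3 or LTi-like and CCR7 DC-like cells Map3k14 was 0.17 thinned, 0.18 without a filter, 0.014 at resolution 0.5 and 0.0060 with total UMIs only, Nfkb2 was 0.24 thinned and 0.12 without a filter, and Birc3 was -0.044 with RLE and -0.042 with DESeq2. The interaction of the Prdm16/Aire DC-like class gave Nfkb2 at 0.10 thinned, the 1 called value that changed sign. Thinned cluster 0 against cluster 1 gave Traf2 at 0.013 and Traf3 at 0.019, and thinned cluster 12 against cluster 1 gave Ltb at -0.0045.

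Over all genes, thinning lowered the number of calls by 1.62 to 4.38 times in the class, cluster and interaction comparisons, as from 5099 to 2034 between the Prdm16/Aire DC-like fractions, 7481 to 3315 in Prdm16/Aire DC-like against CCR7 DC-like cells and 422 to 127 between ILC3 or LTi-like fractions. The block gave 275 in place of 422 between ILC3 or LTi-like fractions, 1001 in place of 1615 between cDC2-like fractions and 894 in place of 1537 in cluster 12 against cluster 1. DESeq2 gave 675 in place of 422 between ILC3 or LTi-like fractions. For the interaction of ILC3 or LTi-like and CCR7 DC-like cells the count was 393, against 102 thinned, 940 without a filter and 846 with DESeq2, and the share of higher calls was 48.1%, against 67.6% thinned, 88.8% without a filter, 29.0% with RLE and 27.9% with DESeq2. No filter gave 7931 in place of 4673 in ILC3 or LTi-like against T cell-like cells. Between ILC3 or LTi-like fractions the share of higher calls was 42.2%, against 64.2% without a filter and 65.4% with total UMIs only. Cluster 5 alone gave 257 in place of 5099, cluster 13 added to CCR7 DC-like cells 2869 in place of 1518, and cluster 6 alone 673. Lta and Tnfsf14 had few UMIs in some dendritic cell classes, such as 4 of Tnfsf14 in hCD2- CCR7 DC-like cells. Fold changes of these genes against such classes rest on those few counts.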
